A study of Mus musculus with 12 samples.

Results

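The genes described here encode the machinery of antigen presentation by the major histocompatibility complex (MHC). They are 10 genes taken by symbol from the authors' deposited tables of differential expression. Of these, 6 belong to class II (H2-Aa, H2-Ab1, H2-Eb1, H2-DMa, Cd74 and Ciita) and 4 to class I (H2-K1, H2-D1, B2m and Tap1). All 10 were present among the 16738 genes of the inguinal white fat (iWAT) table and among the 15363 genes of the brown fat (BAT) table. The study sequenced iWAT RNA of KO females, WT females, KO males and WT males, with 3 libraries in each of the 4 groups. The sources used here do not say how many animals of each group stand behind the BAT table. KO mice lack NDUFS4, an accessory subunit of respiratory complex I, in adipocytes, and WT mice carry the gene. All animals were C57BL/6 mice given a high-fat diet at room temperature. The sources used here do not give the transgene that drives the deletion, the animals' age or whether a library pools animals.

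Every value below is a log2 interaction of genotype and sex. It is the log2 effect of the knockout in females less the log2 effect of the knockout in males. A negative value fits lower RNA in KO females, higher RNA in KO males, or WT females and WT males that differ, and these cannot be told apart here. Only the table's name gives which sex comes first, and every sign rests on it. The columns of single libraries carry names that match no sample label, so values per library were not analysed here and classes I and II were compared on the interaction alone. Sequencing depth is unknown for these values. Behind each p-value lies the spread between libraries, which may be technical in part. In bulk tissue, fewer cells of a type and less RNA per cell cannot be told apart. In the authors' deposited tables the brown adipocyte markers had a median mean log2 expression of 4.38 in iWAT and 10.31 in BAT, on scales that were set separately. The interaction of Ndufs4 itself was 0.89 ± 0.38 (standard error, adjusted p = 0.169) in iWAT and -0.10 ± 0.14 (adjusted p = 0.946) in BAT per the authors' deposited tables, which does not check the genotype labels.

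MHC class I molecules sit on nearly all nucleated cells and show peptides of cytosolic origin to cytotoxic T cells. Their heavy chains pair with beta-2-microglobulin after the TAP transporter has moved peptides into the endoplasmic reticulum. MHC class II molecules are made mainly by B cells, dendritic cells and macrophages and show peptides from endosomes to helper T cells. Class II transcription depends on the coactivator CIITA, which binds factors seated on the X and Y boxes of the promoters, and interferon gamma induces both arms. In obese fat, macrophages, dendritic cells and adipocytes themselves have been described as presenting antigen through class II.

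Promoter stretches of H2-Aa, H2-Eb1, H2-K1, H2-D1 and Tap1 are shown as description, and their part in the interactions was not tested. The sequences are from RefSeq on build GRCm38.p6, whose table held 7 of the 10 genes and lacked H2-Ab1, Cd74 and Ciita. Each stretch is the 180 bases before the most upstream annotated start, written 5′ to 3′ on the gene's strand, and capitals mark matches on either strand to the motifs given after it.
H2-Aa (chr17:34287824-34288003, minus strand): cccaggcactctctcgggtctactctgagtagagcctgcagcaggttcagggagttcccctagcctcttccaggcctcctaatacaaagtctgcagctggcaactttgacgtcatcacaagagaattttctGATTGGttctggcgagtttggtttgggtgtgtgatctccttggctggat
H2-Eb1 (chr17:34305687-34305866, plus strand): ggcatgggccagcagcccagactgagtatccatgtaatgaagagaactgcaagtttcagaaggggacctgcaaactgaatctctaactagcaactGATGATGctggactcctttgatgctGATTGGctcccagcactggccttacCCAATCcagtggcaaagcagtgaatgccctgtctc
H2-K1 (chr17:34000348-34000527, minus strand): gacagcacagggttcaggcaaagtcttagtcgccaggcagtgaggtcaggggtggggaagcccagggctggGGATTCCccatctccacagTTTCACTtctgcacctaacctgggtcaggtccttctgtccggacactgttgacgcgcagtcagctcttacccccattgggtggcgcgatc
H2-D1 (chr17:35262914-35263093, plus strand): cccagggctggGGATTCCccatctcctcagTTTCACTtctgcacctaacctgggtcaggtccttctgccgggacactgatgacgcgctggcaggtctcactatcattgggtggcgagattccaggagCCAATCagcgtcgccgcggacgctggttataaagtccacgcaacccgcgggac
Tap1 (chr17:34187376-34187555, plus strand): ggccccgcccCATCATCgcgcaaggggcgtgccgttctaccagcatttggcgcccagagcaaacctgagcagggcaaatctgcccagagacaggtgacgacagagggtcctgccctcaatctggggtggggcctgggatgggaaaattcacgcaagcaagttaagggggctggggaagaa

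The motifs were written down after the sequences had been read, so they are descriptions only. The core of the X box was searched as GATGATG, the Y box as GATTGG, the core of enhancer A (a site of NF-kB factors in class I promoters) as GGATTCC and that of the interferon-stimulated response element as TTTCACT, each on both strands. No matches overlap in the stretches shown. Over the 300 bases of each RefSeq promoter window, GATTGG was found in 16.1% of all 32851 windows and in all 7 MHC genes of that table. In H2-K1 and Tap1 its match lies outside the stretch shown. GATGATG was found in 3.48% of windows, and H2-Eb1 and Tap1 held it among the MHC genes. Only these exact letters were searched, so a gene without a match may still hold an X box that is spelled otherwise. H2-K1 and H2-D1, the classical class I heavy chains, both held GGATTCC (3.79% of windows) and TTTCACT (4.32% of windows). The Tap1 stretch lies between the starts of Tap1 and Psmb9, which are transcribed in opposite directions from starts 226 bases apart.

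Of the 10 MHC genes 2 passed limma's adjusted p of 0.05 in white fat, Ciita and Tap1, beside 4.75% of all genes. Class II genes lay below 0. All 6 had a negative interaction, with a median of -1.86 computed from the authors' deposited table, against a median of 0.13 over all genes. By limma's adjusted p over all genes 1 of the 6 passed 0.05, and 3.69% of all genes passed below 0. At an adjusted p of 0.10, 5 of the 6 passed, where 7.44% of all genes did so below 0. Ciita, the coactivator that switches class II genes on (chromosome 16, 10297923 to 10346282, GRCm39), had the largest interaction of the class II genes at -3.59 ± 0.81 (adjusted p = 0.0357, 95% interval -5.34 to -1.84) per the authors' deposited table.

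The chains that form the class II molecule had interactions close to one another. H2-Aa, the alpha chain of I-A (chromosome 17, 34501718 to 34506797), was at -1.87 ± 0.58 (adjusted p = 0.0742) per the authors' deposited table. H2-Ab1, its beta chain partner (chromosome 17, 34476663 to 34488393), was at -1.81 ± 0.61 (adjusted p = 0.0916) per the authors' deposited table. H2-Eb1, the beta chain of I-E (chromosome 17, 34524841 to 34535648), was at -1.85 ± 0.57 (adjusted p = 0.0722) per the authors' deposited table. C57BL/6 mice lack a working I-E alpha chain, so H2-Eb1 mRNA in this strain does not lead to I-E on the surface.

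The genes that load the molecule lay in the same range. Cd74, the invariant chain that guards the peptide groove on the way to the endosome (chromosome 18, 60936920 to 60945724), was at -1.64 ± 0.60 (adjusted p = 0.117) per the authors' deposited table. For H2-DMa, a chain of the H2-DM molecule that exchanges the invariant chain fragment for peptide (chromosome 17, 34338515 to 34358075), the authors' deposited table gave -2.25 ± 0.71 (adjusted p = 0.0751). The 95% intervals of all 6 class II genes excluded 0, the same as an unadjusted p below 0.05, which 24.5% of all genes reached and 12.6% reached below 0. The intervals of these genes overlapped one another, and with 5 of the 6 not passing the adjusted p the values stand as estimates.

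Class I genes were closer to 0 in white fat, with Tap1 as the exception. All 4 were below 0, their median was -0.63 and 1 of the 4 passed the adjusted p, where 3.69% of all genes passed below 0. That gene was Tap1, a subunit of the peptide transporter (chromosome 17, 34406527 to 34416199), at -2.06 ± 0.55 (adjusted p = 0.0479) per the authors' deposited table. Its adjusted p was 0.0521 once B cell, T cell and ribosomal protein genes were left out of the adjustment, which ends the call. The transporter's other subunit gene Tap2, named after its value was seen, lay above 0. Tap2 was at 1.78 ± 0.99 (adjusted p = 0.281) per the authors' deposited table.

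The components of the class I surface molecule did not pass. H2-K1, a classical heavy chain (chromosome 17, 34214991 to 34219321), was at -0.84 ± 0.36 (adjusted p = 0.169, 95% interval -1.60 to -0.07) per the authors' deposited table. H2-D1, the other classical heavy chain of this strain (chromosome 17, 35481706 to 35486475), was at -0.42 ± 0.35 (adjusted p = 0.476, interval -1.17 to 0.33) per the authors' deposited table. B2m, the light chain shared by all class I molecules (chromosome 2, 121978167 to 121983564), was at -0.34 ± 0.36 (adjusted p = 0.579, interval -1.12 to 0.43) per the authors' deposited table. Class I heavy chain genes share much of their sequence. The sources used here do not give how reads matching several of them were counted, so the values of H2-K1 and H2-D1 are uncertain.

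Set side by side, class II spanned -3.59 to -1.64 and class I -2.06 to -0.34 in white fat per the authors' deposited table. The ranges overlapped through Tap1 alone. Without it, a choice made after its value was seen, the 3 genes of the class I surface molecule lay between -0.84 and -0.34, above all 6 class II genes. The difference between the classes was not tested, because the genes were chosen with results known and the error of a difference between genes of the same libraries needs the library values. With the median of all genes subtracted, the class medians were -1.99 for class II and -0.76 for class I.

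**Figure D1:**
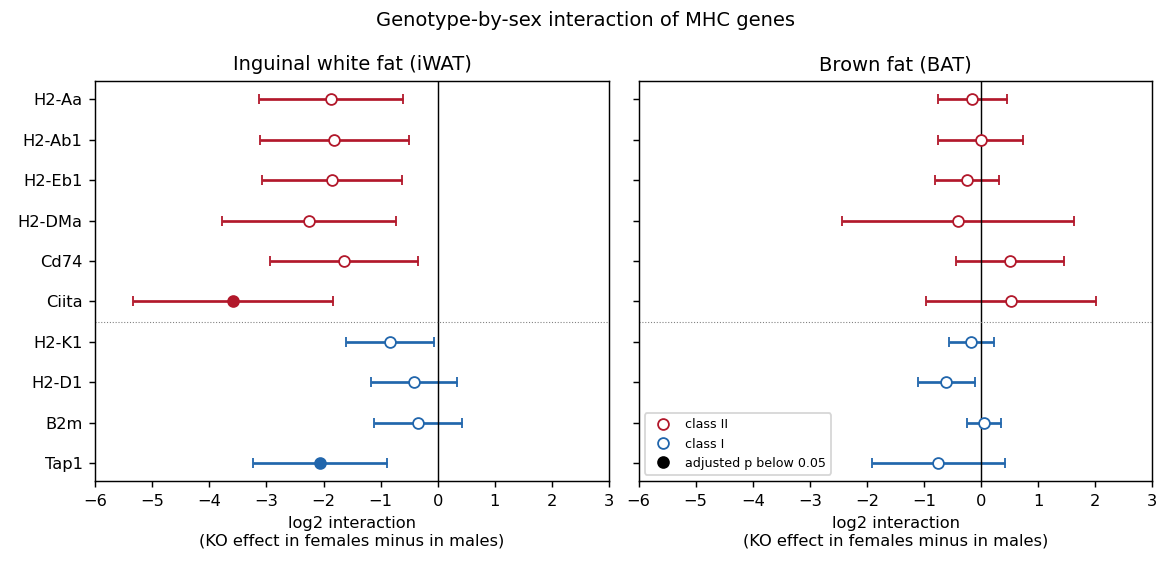
Log2 interaction of each MHC gene in iWAT (left) and BAT (right), from the authors' deposited tables, with 95% intervals as bars; filled points passed an adjusted p of 0.05. In iWAT all 6 class II genes lie below -1.6 and the class I genes H2-K1, H2-D1 and B2m lie between -0.84 and -0.34, while in BAT values range from -0.75 to 0.52.

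Ranked among all white fat genes, the class II values were low. Between 3.19% (Ciita) and 9.28% (Cd74) of genes had a lower interaction than a given class II gene, and between 7.08% (Tap1) and 30.2% (B2m) had a lower one than a given class I gene. Among genes whose mean expression lay within 0.5 log2 the shares were smaller, from 0.541% (Ciita) to 3.75% (H2-DMa) in class II and from 1.90% (Tap1) to 16.7% (H2-D1) in class I. The window of B2m held 11 genes, itself included.

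The class II genes were also measured with unusually large errors for their expression in white fat. Their standard errors were 0.57 to 0.81, where genes of like expression had medians of 0.26 to 0.40. Larger errors were found in 1.96% to 6.76% of genes of like expression. For H2-K1, H2-D1 and B2m these shares were 33.3%, 35.8% and 63.6%, and for Tap1 6.22%. In brown fat the shares for class II ran from 8.23% (H2-DMa) to 75.8% (Ciita). The error grows with the spread between libraries of a group, and which libraries were high or low is not analysed here.

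**Figure D2:**
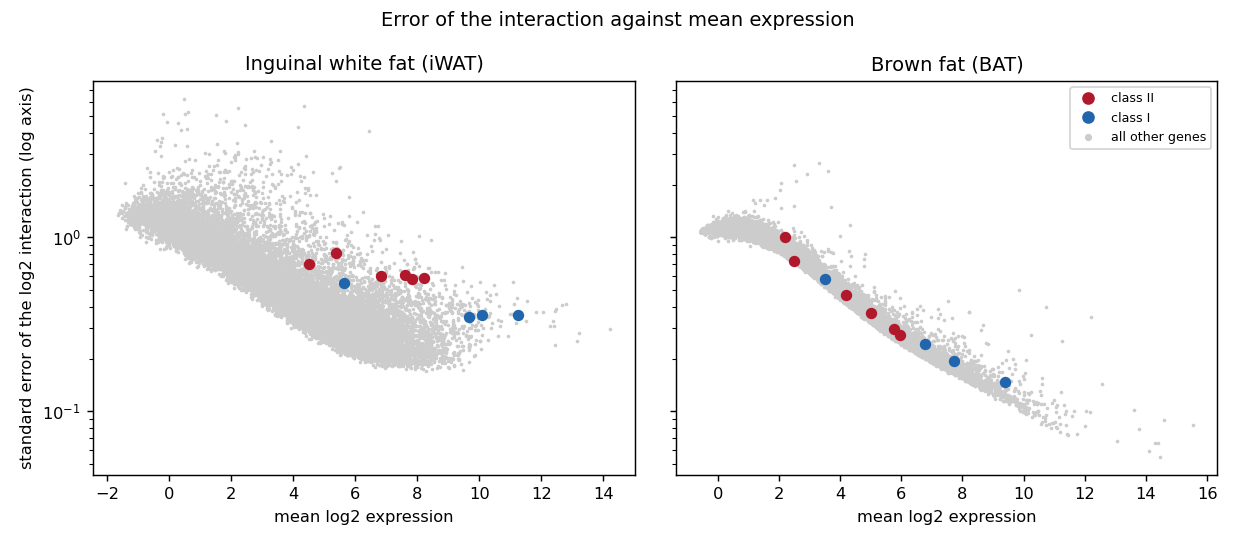
Standard error of the log2 interaction (log axis) against mean log2 expression for every gene of the authors' deposited tables (grey) in iWAT (left) and BAT (right), with class II genes in red and class I genes in blue. Class II genes sit along the upper edge of the cloud in iWAT, with errors of 0.57 to 0.81, and inside the narrow band of genes in BAT.

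In brown fat no MHC gene passed. Of the 10 genes, 0 passed limma's adjusted p of 0.05, where 0.013% of all genes did, and 1 passed an unadjusted p of 0.05, where 6.51% did and 3.18% did so below 0. That gene was H2-D1, at -0.61 ± 0.24 (unadjusted p = 0.0170, adjusted p = 0.690) per the authors' deposited table. The class II median was -0.08 with 4 of 6 genes below 0, and the class I median was -0.39 with 3 of 4 below 0, against a median of 0.01 over all genes.

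The individual class II values in brown fat lay on both sides of 0. Ciita was at 0.52 ± 0.73, Cd74 at 0.51 ± 0.47 and H2-Ab1 at -0.01 ± 0.37 per the authors' deposited table. H2-Aa was at -0.16 ± 0.30, H2-Eb1 at -0.26 ± 0.28 and H2-DMa at -0.41 (95% interval -2.44 to 1.62) per the authors' deposited table. Every class II interval included 0. Mean log2 expression in brown fat was 2.49 for Ciita and 2.21 for H2-DMa, below the median of 3.48 over all genes, per the authors' deposited table. Among class I genes, Tap1 was at -0.75 ± 0.57, H2-K1 at -0.17 ± 0.19 and B2m at 0.05 ± 0.15 per the authors' deposited table, and these intervals included 0 too.

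The difference between depots was tested for each gene as the iWAT interaction minus the BAT interaction, taking the tables as independent. None of the 10 genes passed the adjusted p over 14502 shared genes, of which 0.248% passed. The difference for Ciita was -4.11 ± 1.09 (adjusted p = 0.0791, 95% interval -6.33 to -1.89). That of Cd74 was -2.15 ± 0.76 (adjusted p = 0.169). The intervals of 5 of 6 class II differences excluded 0, the exception being H2-DMa at -1.84 ± 1.22, and those of 0 of 4 class I differences did so. At an unadjusted p of 0.05, 15.7% of all shared genes passed. Among class I genes the differences ran from -1.31 ± 0.79 (Tap1) to 0.19 ± 0.43 (H2-D1), with intervals of -2.91 to 0.29 and -0.68 to 1.07.

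Further genes of the class II arm in white fat included the largest interactions of the pathway. Of 22 measured genes, 5 passed below 0 and none above, beside 3.69% of all genes below 0 and 1.06% above. Their median was -1.13. In the authors' deposited table H2-Eb2, a beta chain gene of the E family, was at -10.18 ± 2.35 (adjusted p = 0.0365) and H2-Ob, a chain of the H2-O molecule that restrains H2-DM, at -9.57 ± 2.43 (adjusted p = 0.0439). H2-DMb2, a beta chain of H2-DM, was at -7.16 ± 1.61 (adjusted p = 0.0357) per the authors' deposited table. Its close copy H2-DMb1, named after its value was seen, was at -1.13 ± 0.48 (adjusted p = 0.169) per the authors' deposited table, and the split of reads between these copies is uncertain. The costimulatory genes Cd40 and Cd86 were at -5.31 ± 1.35 (adjusted p = 0.0441) and -3.40 ± 0.71 (adjusted p = 0.0357) per the authors' deposited table.

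Several of these genes were weakly expressed, with a mean log2 expression of 0.95 for H2-Eb2, 1.85 for Cd40 and 2.81 for H2-Ob per the authors' deposited table. The size of such an interaction depends on how the authors' fit treated values near the floor. Lysosomal proteases that cut antigen and the invariant chain, named after their values were seen, varied. Ctss, which cuts the invariant chain in antigen-presenting cells, was at -1.14 ± 0.67 (adjusted p = 0.307) per the authors' deposited table. The other proteases were nearer 0, with Ctsb at 0.20 ± 0.32, Ctsd at 0.35 ± 0.36, Ctsl at 0.20 ± 0.44 and Lgmn at 0.09 ± 0.38 per the authors' deposited table. Of 36 further listed genes with a RefSeq window, 4 held the letters of the X box core, where 3.48% of all windows did. These were H2-DMb1 and H2-DMb2 of the class II arm and Psmb9 and Psme2 of the class I arm.

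In the class I arm, 2 of 23 further genes passed below 0 and none above, with a median of -0.55, where 3.69% of all genes passed below 0 and 1.06% above. Nlrc5, the class I counterpart of CIITA, was at -2.41 ± 0.46 (adjusted p = 0.0355) per the authors' deposited table. Psmb8, a catalytic subunit of the immunoproteasome that trims class I peptides, was at -1.91 ± 0.39 (adjusted p = 0.0357) per the authors' deposited table. Tapbpl, a peptide editor, was at -1.18 ± 0.32 (adjusted p = 0.0512) and Psme2, a subunit of the proteasome activator, at -1.06 ± 0.31 (adjusted p = 0.0608) per the authors' deposited table. Psmb9, the immunoproteasome gene that faces Tap1 and was named for that position, was at -1.34 ± 0.39 (adjusted p = 0.0629) per the authors' deposited table. With the median of all genes subtracted, 5 of the 23 passed, where 5.74% of all genes did.

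The same lists gave no call in brown fat. Over all genes 0.013% passed the adjusted p and 6.51% an unadjusted p of 0.05, by limma. Of 19 measured class II genes 0 passed the adjusted p and 1 the unadjusted p, and of 22 class I genes 0 passed either. With so few genes passing the adjusted p at all, its counts of 0 say little about these lists. Medians were -0.08 and -0.16. The gene that passed unadjusted was H2-DMb1, at -1.77 ± 0.77 (unadjusted p = 0.0275, adjusted p = 0.731) per the authors' deposited table for brown fat. Nlrc5 was at -1.52 ± 0.83, H2-DMb2 at -1.68 ± 1.19 and Psmb8 at -0.20 ± 0.62 per the authors' deposited table for brown fat. Their mean log2 expression there was 1.98, 0.04 and 3.26, against a median of 3.48 over all genes.

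Genes of interferon signalling, which induces both arms, lay on both sides of 0 in white fat, with more of them below it. Of 27 measured genes of the interferon axis, 4 passed below 0 and none above, where 3.69% of all genes passed below 0 and 1.06% above. The median was -0.86, with 21 genes below 0 and 6 above it. Among those above 0, named after their values were seen, were the interferon-induced genes Isg15 at 0.22 ± 0.34, Ifit1 at 0.44 ± 0.43 and Gbp2 at 0.16 ± 0.30 per the authors' deposited table. Irf1, a transcription factor induced by interferon gamma, was at -1.51 ± 0.32 (adjusted p = 0.0357) and Jak2, a kinase of its receptor, at -1.17 ± 0.28 (adjusted p = 0.0377) per the authors' deposited table. Igtp, an interferon-inducible GTPase, was at -1.63 ± 0.40 (adjusted p = 0.0396) and Irf9, part of the complex that acts on the interferon response element, at -1.06 ± 0.28 (adjusted p = 0.0465) per the authors' deposited table. In brown fat the median was -0.23, and 0 of 25 passed the adjusted p, where 0.013% of all genes did. At an unadjusted p of 0.05, by limma, 2 passed, where 6.51% of all genes did. These 2 were Ifngr1, a chain of the interferon gamma receptor, at -0.60 ± 0.19 (adjusted p = 0.545) and Cxcl9, a chemokine induced by interferon gamma, at 1.01 ± 0.45 (adjusted p = 0.745) per the authors' deposited table.

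Markers of immune cells in white fat passed in unequal numbers, where 3.69% of all genes passed below 0. Of 12 B cell markers 7 passed below 0, with a range of -12.05 to -5.22 over all 12. Of 13 T cell markers 10 passed below 0, with a range of -9.15 to -5.00 over all 13. All 12 B cell and all 13 T cell markers passed an unadjusted p of 0.05 below 0, by limma, where 12.6% of all genes did. The median mean log2 expression of these lists was 1.99 and 2.13. Of 10 dendritic cell markers 2 passed, with a median of -2.07 and a range of -7.34 to 0.75. In the authors' deposited table these 2 were Ccr7, the receptor that guides activated dendritic cells and T cells to lymph nodes, at -7.34 ± 1.74 (adjusted p = 0.0378) and Siglech, a surface receptor of plasmacytoid dendritic cells, at -4.25 ± 1.09 (adjusted p = 0.0450). Clec9a, the dendritic cell marker of next lowest p, was at -2.87 ± 0.80 (adjusted p = 0.0559) per the authors' deposited table. Of the 10 dendritic cell markers 9 were below 0. At an unadjusted p of 0.05, by limma, 6 of the 10 passed, all below 0, where 12.6% of all genes did so below 0. Picked with values known, the integrin gene Itgax and the transcription factor gene Zbtb46 were the markers nearest 0. They were at -0.14 ± 0.65 and -0.04 ± 0.37 per the authors' deposited table.

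No macrophage marker passed. Of 13 measured, 0 passed the adjusted p and 0 an unadjusted p of 0.05, by limma, where 4.75% and 24.5% of all genes did. Their median was -0.28, with a range of -1.08 to 0.40. The lowest p among them was that of Lyz2, a lysozyme, at -1.02 ± 0.49 (adjusted p = 0.217) per the authors' deposited table. Lymph node stroma, represented by 6 genes, had 1 passing, the chemokine gene Ccl19 at -9.63 ± 2.42 (adjusted p = 0.0427) per the authors' deposited table, and a median of -9.75. All 6 stroma genes passed an unadjusted p of 0.05 below 0, by limma, where 12.6% of all genes did. Cr2 is counted both in this list and in the B cell list. All 8 adipocyte markers were above 0 with a median of 0.45 and none passed. Lists of other tissues lay further above 0, again with none passing: all 7 brown adipocyte markers (median 3.29), all 6 of skeletal muscle (median 3.70) and all 5 measured of mammary epithelium (median 2.93). Their median standard errors were 2.55, 2.89 and 2.03. Endothelial cell and fibroblast markers had medians of 0.61 and 0.51, with 0 of 6 and 0 of 7 passing. At an unadjusted p of 0.05, by limma, 1 of 8 adipocyte, 2 of 6 endothelial and 3 of 7 fibroblast markers passed and 0 of the brown adipocyte, muscle and mammary markers, where 24.5% of all genes did. The part of these cell types in the values of the MHC genes was not tested.

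Brown fat differed in which markers it held. Of the lists above, 6 of 12 B cell, 5 of 13 T cell and 6 of 10 dendritic cell markers were in the brown fat table. Their medians were -0.47, -0.34 and 0.16, and none passed there, where 0.013% of all genes did. The median mean log2 expression of these lists was 0.05, 0.11 and 0.46, near the floor, and their median standard errors were 1.10, 1.08 and 1.04. The lack of calls there therefore says little about these cells. All 6 skeletal muscle markers were below 0 there, with a median of -3.52. Of these 0 passed the adjusted p and 3 an unadjusted p of 0.05, by limma, where 0.013% and 6.51% of all genes did. Of 13 macrophage markers 0 passed the adjusted p and 4 passed an unadjusted p of 0.05, all below 0, by limma, where 3.18% of all genes did so below 0, and the median was -0.59. These 4 were Csf1r, C1qa, C1qc and Mrc1.

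**Figure D3:**
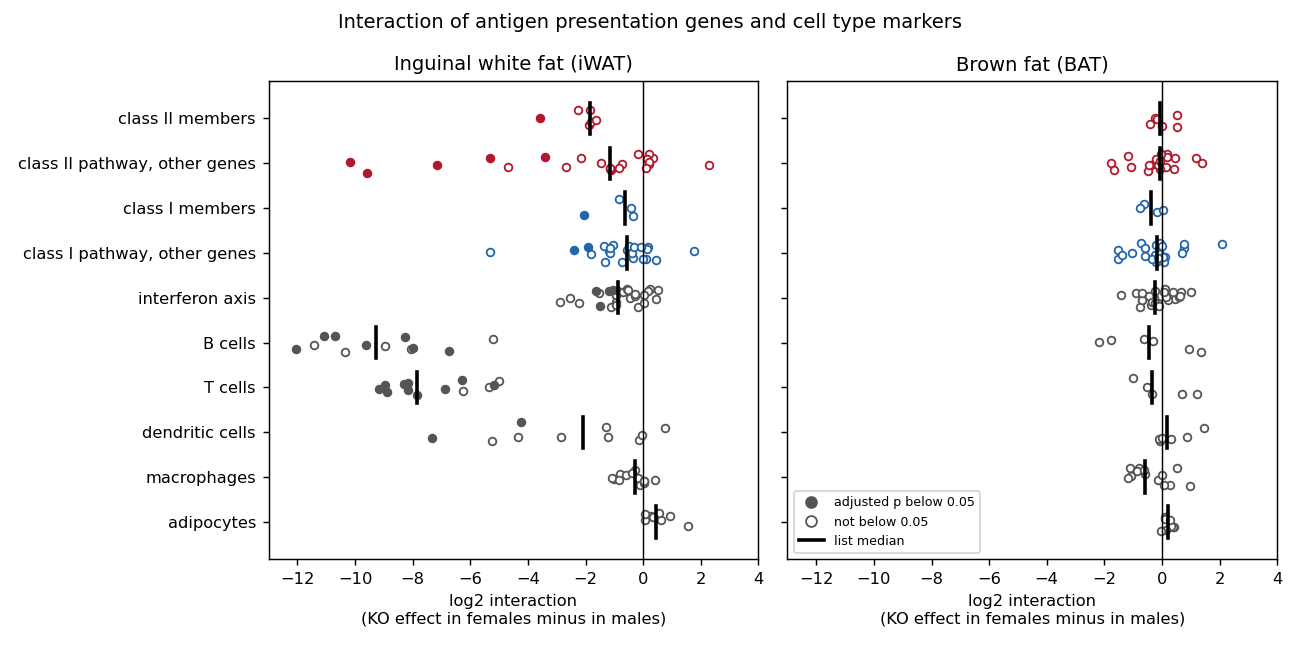
Log2 interaction of each measured gene of the class II, class I, interferon and cell type lists in iWAT (left) and BAT (right), from the authors' deposited tables; filled points passed an adjusted p of 0.05 and black bars are list medians. In iWAT the B and T cell medians are -9.29 and -7.83, class II members lie at a median of -1.86, and macrophage and adipocyte medians are -0.28 and 0.45.

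Position in the genome was examined for the 7 MHC genes on the interval of chromosome 17 that runs from H2-K1 to H2-D1 (34214991 to 35486475, GRCm39). The white fat table held 67 genes there, of which 8 passed below 0 and none above. The 7 MHC genes had a median of -1.85 with 1 passing, the other 8 listed pathway genes a median of -3.30 with 4 passing, and the remaining 52 genes a median of -0.08 with 3 passing, against 3.69% of all genes passing below 0. These 52 genes lay on both sides of 0, with 28 below it. In the brown fat table none of the 61 genes of the interval passed, where 0.013% of all genes did. The medians there were -0.26, -0.87 and -0.11 for the same groups in the same order.

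**Figure D4:**
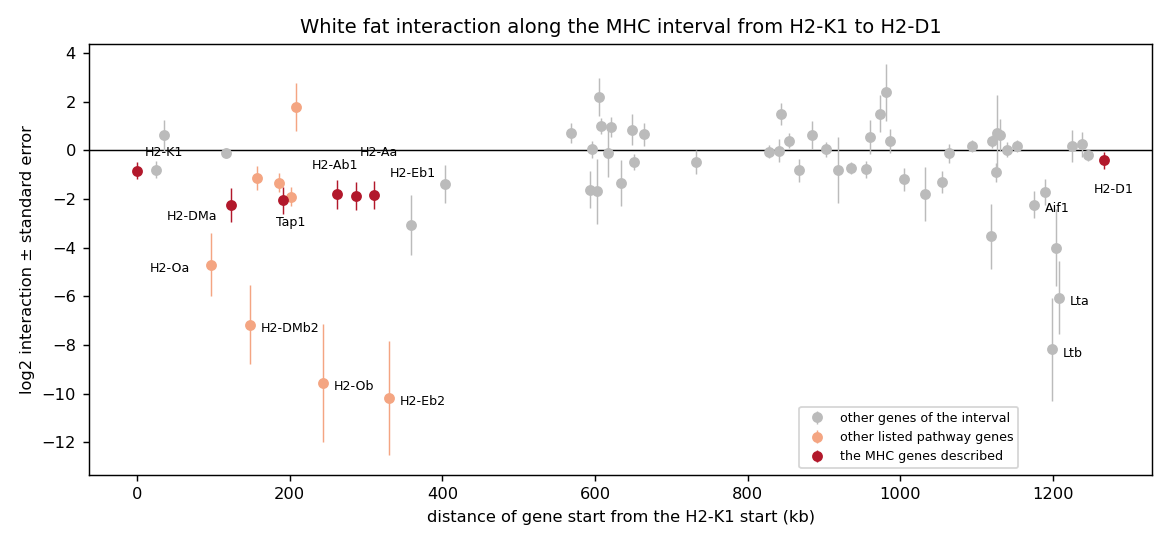
White fat log2 interaction ± standard error of the 67 genes from H2-K1 to H2-D1, from the authors' deposited table, against the distance of each gene's start from that of H2-K1 in kb. The described MHC genes (red) and other listed pathway genes (orange) sit mostly below 0 at the left, and the 52 remaining genes (grey) scatter around a median of -0.08, apart from a few such as Ltb and Lta.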

How the data were processed

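Values are those of the authors' deposited tables for iWAT and BAT. The submitters' processing notes name featureCounts, limma and GRCm39. The sources used here give no versions, aligner, annotation or strand setting. Per the file headers, each table gives a log2 interaction, the mean log2 expression, a moderated t (a score deposited with no fixed range), a p-value and an adjusted p-value. Library columns match no label, so 48 columns in 4 tables were used in no step, and the class comparison was made on the interaction in place of library values. For the same reason neither the fit planned should columns be tied to samples nor likeness in pattern was run. No depth is known.

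Standard errors are the log2 interaction over t. The total degrees of freedom, 13.4 in iWAT and 33.9 in BAT, were solved from t and p and gave 95% intervals. Adjusted p-values equal the Benjamini-Hochberg adjustment over each table. Depots were compared with Welch-Satterthwaite degrees of freedom and the same adjustment. Genes of like expression lie within 0.5 log2. The steps were tested on simulated data. Members and lists were chosen with earlier results of these data known. Named were the 10 members, every listed pathway gene that passed, and the listed genes of lowest p; others are marked. Tools were scipy 1.17.1, numpy 2.4.6 and pandas 2.3.3 in Python 3.11.15, with figures by matplotlib 3.10.9.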

Additional observations from a re-analysis of the deposited data

How the results depend on the processing

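In white fat the count of MHC genes past the threshold was 2 (Ciita and Tap1). It was 6 at an adjusted p of 0.10, which 12.1% of all genes passed and where H2-Aa, H2-Ab1, H2-Eb1 and H2-DMa joined, and 1 (Ciita) with B cell, T cell and ribosomal protein genes left out, where fewer genes were tested, 3.78% of them passed and Tap1 had an adjusted p of 0.0521. It was 2 with centring on the median of all genes (5.74% of all genes passing), with a minimum mean expression of log2 of 10 and with protein-coding genes only. In brown fat and in the difference between depots the counts were 0 under every alternative run, with 8 of the 10 genes tested under the expression minimum. The class II median in white fat ran from -1.99 to -1.56 and that of class I from -0.76 to -0.55, with centring and with the wider lists. Over all alternatives, 93 of the values of single MHC genes kept their direction and their side of the threshold, 4 newly passed and 1 no longer did. The 4 passed only because the threshold was raised to 0.10. Only centring could change a direction, since the other alternatives left the log2 interaction as it was. In brown fat no MHC gene was near the threshold, the smallest adjusted p by limma being 0.690. No paired analysis was possible because library columns could not be tied to replicate numbers. For the same reason leaving out replicates, other pseudocounts and filters on library values were not run. Whether 1 library decides a value is therefore unknown.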

Other observations

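Of the 52 genes between H2-K1 and H2-D1 that belong to no list here, 3 passed below 0 in white fat, where 3.69% of all genes did. All 3 lie near H2-D1 and were named after their values were seen. Lta and Ltb, which encode the lymphotoxins that organise lymphoid tissue, were at -6.05 (95% interval -9.29 to -2.82, adjusted p = 0.0416) and -8.18 (interval -12.71 to -3.65, adjusted p = 0.0450) per the authors' deposited table. Aif1, a calcium-binding protein of macrophages, was at -2.23 ± 0.57 (adjusted p = 0.0438) per the authors' deposited table. Of the 13 macrophage markers 0 passed, where 4.75% of all genes did. Mean log2 expression was -0.70 for Lta and 0.59 for Ltb, so both lie near the floor. In brown fat Aif1 was at -0.81 ± 0.94 (adjusted p = 0.934) per the authors' deposited table.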
